A study of Mus musculus with 9 samples.

Results

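The genes described here are the desmosomal cadherins Dsg1a, Dsg1b, Dsg2, Dsg3, Dsc1, Dsc2 and Dsc3 and the plaque proteins Dsp, Pkp1 and Pkp3, in epidermis of WT mice and of mice without the Epithelial splicing regulatory proteins Esrp1 or Esrp1 and Esrp2. They were found by gene symbol, and each of the 10 symbols had 1 row among the 38203 genes of the table. RNA was sequenced from epidermis of individual embryos at embryonic day E18.5 on a mixed C57BL6/129Sv background, partly back-crossed to C57BL6. The 4 genotypes were WT with both genes intact (n = 2), KO (Esrp1-/-, Esrp2+/+, n = 3), KH (Esrp1-/-, Esrp2+/-, n = 2) and DKO (Esrp1-/-, Esrp2-/-, n = 2). Both knockouts were germline alleles, so loss was not limited to the skin. By the crosses that the paper gives, KO, KH and DKO embryos came from parents of different Esrp2 genotypes. Cross and Esrp2 genotype therefore cannot be told apart. Every value is in FPKM, which relates fragments to exon length and library size, can be compared between genes of different length and carries no read number. The sample labels call the controls WT at both genes, whereas the extraction text lists them as Esrp2-/-. Esrp2 was at 118.1 and 135.8 FPKM in the WT libraries, at 38.6 to 131.1 FPKM in the KO and KH libraries, and at 0.0843 and 0.0463 FPKM in the DKO libraries. Esrp1, of which the allele deletes only some exons, was at 119.0 and 141.9 FPKM in the WT libraries and at 18.2 to 55.1 FPKM in the other 7.

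Desmosomes are junctions that hold neighbouring keratinocytes together and tie the keratin network of one cell to that of the next. Desmogleins (Dsg) and desmocollins (Dsc) are cadherins that span the membrane and bind in the space between cells. Inside the cell, plakoglobin (Jup) and the plakophilins (Pkp) bind their tails, and desmoplakin (Dsp) links that plaque to keratin filaments. In epidermis, Dsg1 and Dsc1 are known from the suprabasal layers and Dsg3 and Dsc3 mainly from the lower layers, while Dsg2 and Dsc2 are the widespread forms of simple epithelia.

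The cadherin genes lie together on chromosome 18 (GRCm38), where the 7 members span 643.6 kb from 19960930 to 20604521, with the desmocollins on the minus strand and the desmogleins on the plus strand. Dsp lies on chromosome 13 (38151294 to 38198577, plus strand), Pkp1 on chromosome 1 (135871395 to 135919207, minus strand) and Pkp3 on chromosome 7 (141078218 to 141090510, plus strand). Dsg1a and Dsg1b are close paralogs, together with Dsg1c, and reads that fit more than 1 of them could be divided between them, so their separate levels are uncertain. Dsg2, Dsp and Pkp1 each overlap 1 gene on the opposite strand in GENCODE M21. The libraries were made with a stranded kit, but whether strand was used in the estimate of FPKM is not given in the sources used here.

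The libraries were not alike within genotypes. KO replicate 3 had Krt10, a keratin of the suprabasal layers, at 35425 FPKM, against 10815 and 18916 FPKM in the other KO libraries and 24844 and 32066 FPKM in WT. The summed level of 7 hair follicle markers was 68.2 to 74.0 FPKM in KO replicate 1, KH replicate 1 and DKO replicate 2 and 24.4 to 36.3 FPKM in the other 6. Epidermal keratins were abundant, and all 4 endothelial and all 4 skeletal muscle markers were below 1 FPKM in every library. The 6 dermal fibroblast markers summed to 44.2 to 149.6 FPKM, most of it Dcn, and the 4 red blood cell markers found summed to 13.3 to 1289 FPKM, highest in DKO replicate 2. Xist, a transcript of female cells, was present in the 3 KO libraries and WT replicate 2 and near 0 in the other 5, so sex was not balanced over the genotypes. Long transcripts were relatively high in WT replicate 2 (rank correlation of a gene's deviation with transcript length 0.23, over 12070 genes) and low in KO replicate 2 (-0.33) and DKO replicate 1 (-0.27).

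The study compared each Esrp genotype with WT, and the genotypes with each other, to learn what the loss of Esrp alleles does to epidermal gene expression. The desmosomal genes fell into 3 patterns. Dsg1a, Dsg1b, Dsc1, Dsc3 and Dsp were abundant and had their lowest genotype means in DKO, at 22.7% to 52.0% of WT. Dsc2, a minor gene in this tissue, was at 230% of WT in DKO. Pkp3 had nearly equal means in WT, KO and DKO, Pkp1 lay between, and the scarce Dsg2 and Dsg3 differed more within genotypes than between them. Genes were called at a Benjamini-Hochberg adjusted p below 0.05 in limma, over 16897 genes, together with a difference of more than 2-fold in average FPKM. By that rule Dsc2 in DKO was the single call among the members, made against the mean of the other genotypes, and it was lost in 17 of 21 alternatives.

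**Figure D1:**
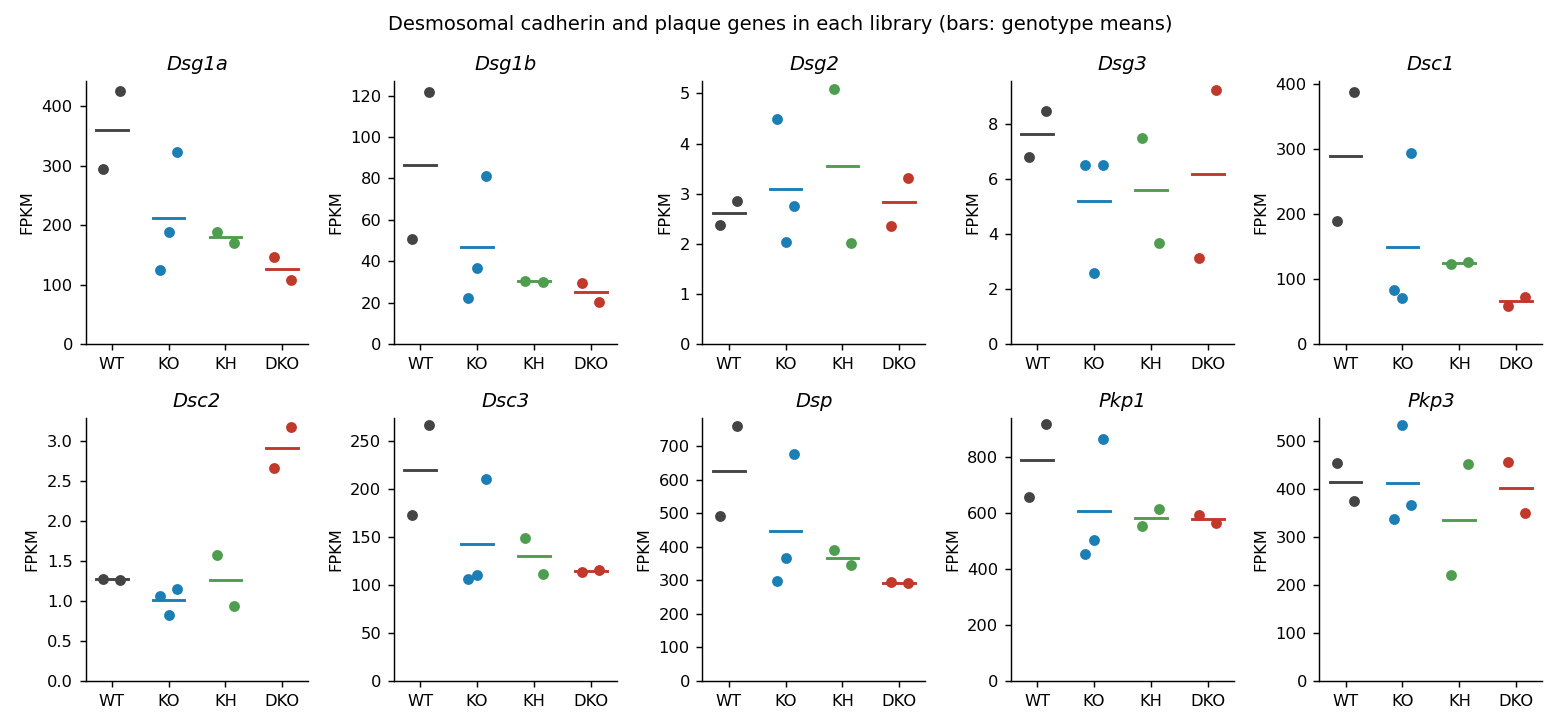
FPKM of each of the 10 genes (linear axis from 0) in the 9 libraries, by genotype; points are libraries and bars genotype means. Dsg1a, Dsg1b, Dsc1, Dsc3 and Dsp are low in both DKO libraries and high in WT and in 1 of the 3 KO libraries, whereas Dsc2 is high only in the DKO libraries, at 2.66 and 3.17 FPKM.

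Among the desmogleins, Dsg1a, the more abundant Dsg1 gene, was at 293.9 and 426.2 FPKM in WT, 123.8, 187.9 and 322.6 FPKM in KO, 189.2 and 169.8 FPKM in KH, and 146.4 and 107.5 FPKM in DKO. Both KH and both DKO libraries lay below both WT libraries, and DKO lay below KH, whereas KO replicate 3 lay within the WT range. The genotype means were 360 ± 93.5 (SD, n = 2) in WT, 211 ± 101 (n = 3) in KO, 179 ± 13.7 (n = 2) in KH and 127 ± 27.5 (n = 2) in DKO. The log2 fold change of DKO versus WT was -1.49 (SE 0.42, limma adjusted p = 0.182), and those of KO and KH versus WT were -0.85 (SE 0.38, adjusted p = 0.853) and -0.98 (SE 0.42, adjusted p = 0.980).

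Dsg1b was at 50.7 and 121.9 FPKM in WT, 22.4, 36.8 and 81.0 FPKM in KO, 30.7 and 30.0 FPKM in KH, and 29.6 and 20.6 FPKM in DKO. The order of the genotypes was that of Dsg1a, and the WT libraries differed from each other by more than WT replicate 1 differed from any KH or DKO library. Its log2 fold change was -1.63 (SE 0.57, limma adjusted p = 0.267) in DKO and -1.35 (SE 0.57, adjusted p = 0.980) in KH. The DKO estimate depended on the WT library used, at -1.01 without WT replicate 2 and -2.26 without WT replicate 1. Dsg1b made up 14.0% to 22.2% of the Dsg1a and Dsg1b total in the 9 libraries, and 14.7% and 22.2% in the WT libraries alone.

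Dsg3, the desmoglein of the lower layers, was far scarcer, at 6.83 and 8.47 FPKM in WT, 6.53, 2.59 and 6.51 FPKM in KO, 7.51 and 3.69 FPKM in KH, and 3.15 and 9.24 FPKM in DKO. The DKO libraries held both the highest value of the 9 and the second lowest, so DKO overlapped with every other genotype. All 3 KO libraries lay below both WT libraries, by as little as 6.53 against 6.83 FPKM. The 95% interval of its log2 fold change in DKO ran from -1.58 to 0.78, and the estimate of -0.40 became 0.25 without DKO replicate 1. Dsg2, the desmoglein of simple epithelia and hair follicles, was at 2.37 and 2.85 FPKM in WT, 4.49, 2.03 and 2.75 FPKM in KO, 5.09 and 2.02 FPKM in KH, and 2.35 and 3.31 FPKM in DKO. Its 3 highest libraries, KO replicate 1, KH replicate 1 and DKO replicate 2, were those with the highest summed hair follicle markers, and the part of those cells in its level was not tested. The interval for DKO versus WT ran from -0.79 to 0.95.

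Dsc1, the desmocollin of the upper layers, varied most of the 10 genes, by 6.54-fold between the lowest and the highest library. It was at 190.2 and 388.5 FPKM in WT, 84.0, 71.7 and 294.9 FPKM in KO, 124.1 and 127.2 FPKM in KH, and 59.4 and 72.1 FPKM in DKO. The DKO libraries lay below both WT and both KH libraries but overlapped with KO, where replicate 2 was at the DKO level. The mean was 289 ± 140 FPKM (SD, n = 2) in WT and 65.8 ± 8.97 FPKM (n = 2) in DKO, a log2 fold change of -2.04 (SE 0.62, limma adjusted p = 0.212). The call was missed with all 9 libraries, and was made without KO replicate 3 (adjusted p = 0.0474) and in a fit of only WT and DKO (adjusted p = 0.0401). Those fits also called more of all genes, 147 of 16958 and 400 of 16388, against 123 of 16897 with all libraries. Over the settings other than left-out libraries, the adjusted p ranged from 0.0401 to 0.474. It was 0.393 and 0.882 without WT replicate 1 and 2, and 0.514 and 0.494 without DKO replicate 1 and 2. Without WT replicate 2 the average FPKM in DKO was 0.346 of WT, where it was 0.227 with all libraries.

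Dsc3, the more basal desmocollin, was at 172.9 and 265.9 FPKM in WT, 106.2, 110.3 and 209.8 FPKM in KO, 149.2 and 111.5 FPKM in KH, and 113.3 and 115.0 FPKM in DKO. Both DKO libraries lay below WT but within the range of KO and KH. The log2 fold change in DKO was -0.90 (SE 0.37, limma adjusted p = 0.328).

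Dsc2, the desmocollin of simple epithelia, went the other way. It was at 1.28 and 1.26 FPKM in WT, 1.06, 0.820 and 1.14 FPKM in KO, 1.57 and 0.943 FPKM in KH, and 2.66 and 3.17 FPKM in DKO. Both DKO libraries lay above all of the other 7, the highest of which was KH replicate 1. Against the mean of WT, KO and KH, the log2 fold change was 0.85 (SE 0.15, limma adjusted p = 0.0464), with a 2.48-fold higher average FPKM, and Dsc2 was called. In the pairwise comparisons DKO was 0.79 higher than WT (SE 0.19, adjusted p = 0.136), 0.96 higher than KO (SE 0.17, adjusted p = 0.0600) and 0.81 higher than KH (SE 0.19, adjusted p = 0.243), all on the log2(FPKM + 1) scale, which understates the change of a gene near 1 FPKM. The call against the mean was kept in 4 of 21 alternatives and lost in 17, with the adjusted p between 0.0160 and 0.505 apart from left-out libraries. The comparison with KO became a call without KH replicate 1 (adjusted p = 0.0416) or KH replicate 2 (adjusted p = 0.0392). The call against the mean was lost without either DKO replicate (adjusted p = 0.192 and 0.312), either WT replicate, any KO replicate or KH replicate 2.

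Dsp, which anchors keratin to the junction, was at 491.6 and 762.0 FPKM in WT, 298.3, 366.0 and 677.9 FPKM in KO, 391.1 and 345.1 FPKM in KH, and 295.6 and 291.1 FPKM in DKO. The DKO libraries were the lowest 2 of the 9, just under KO replicate 1. Their mean was 293 ± 3.18 FPKM (SD, n = 2) against 627 ± 191 FPKM (n = 2) in WT, a log2 fold change of -1.06 (SE 0.40, limma adjusted p = 0.298).

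Pkp1, the plakophilin of the upper layers, was at 659.0 and 918.0 FPKM in WT, 453.6, 502.9 and 864.4 FPKM in KO, 553.1 and 615.5 FPKM in KH, and 593.4 and 563.5 FPKM in DKO. The KH and DKO libraries lay below WT, and KO held both lower and higher values than they did. The log2 fold changes of KO, KH and DKO were -0.42, -0.41 and -0.43, with a 95% interval for DKO of -1.24 to 0.39. Pkp3, a plakophilin found in all epidermal layers, was at 453.2 and 374.1 FPKM in WT, 337.4, 532.0 and 366.3 FPKM in KO, 221.2 and 450.3 FPKM in KH, and 454.6 and 349.8 FPKM in DKO. Its groups overlapped throughout, and the interval for DKO versus WT, -0.92 to 0.82, does not exclude a change of the size estimated for Pkp1.

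**Figure D2:**
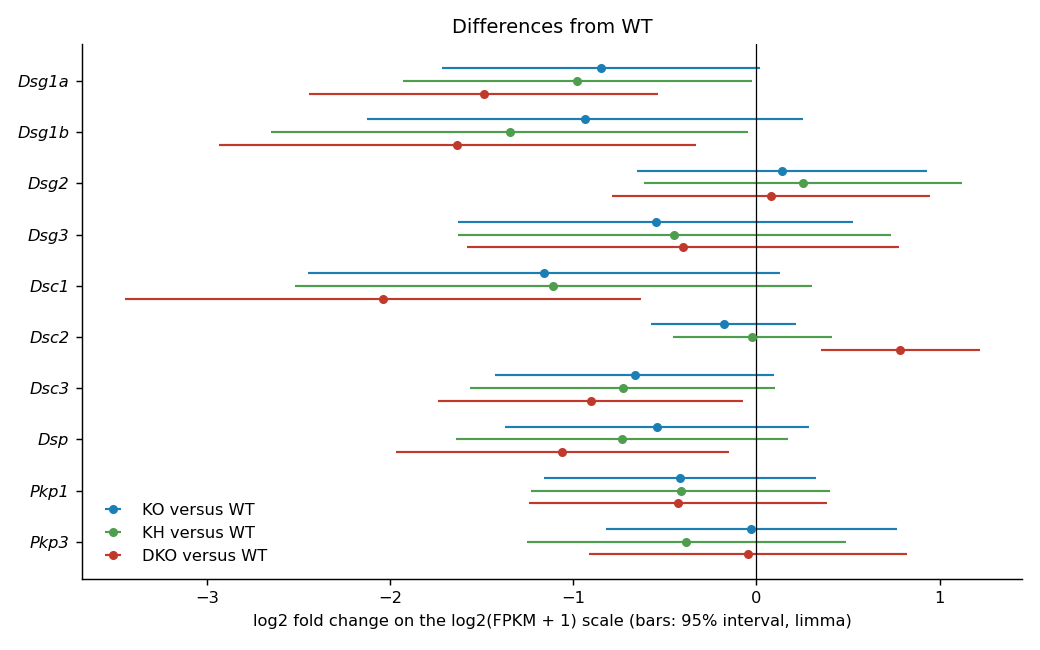
Log2 fold change of each gene in KO, KH and DKO versus WT (horizontal axis, log2(FPKM + 1) scale); points are limma estimates and bars 95% intervals. The largest estimate is that of Dsc1 in DKO, at -2.04, and Dsc2 in DKO has its whole interval above 0, while the Pkp3 and Dsg2 intervals include 0 in all 3 comparisons.

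The comparisons with WT share the same 2 WT libraries, so a low or high WT value moves all 3 in the same direction. In DKO versus WT, limma called 0 of the 10 members, where 0.728% of all genes tested were called, and 6 members had an unadjusted p below 0.05, where 13.8% of all genes had. That count rested on single libraries. It was 1 (Dsc2) when WT replicate 2 was left out, and 3 and 2 when DKO replicate 1 and 2 were left out in turn. The share over all genes fell as well, to 6.14%, 9.95% and 9.64%. Both DKO libraries lay below both WT libraries in 6 members (Dsg1a, Dsg1b, Dsc1, Dsc3, Dsp and Pkp1), where 26.4% of all genes did, and above them in 1 (Dsc2), where 27.8% did. Both DKO libraries lay above all other 7 libraries in that 1 member, against 5.33% of all genes. The median log2 fold change of the 10 members was -0.67, beside 0.02 over all genes tested, and the members' median was -0.94 and -0.43 when WT replicate 1 and 2 were left out in turn. Leaving out DKO replicate 2 gave -0.98, and the length correction gave -0.54, beside 0.03 over all genes.

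In KO versus WT, 0 members were called by limma (0.0296% of all genes) and 0 had an unadjusted p below 0.05 (4.53% of all genes). All KO libraries lay below WT in 2 members, Dsg3 and Dsc2 (12.1% of all genes), and the median log2 fold change was -0.55. In KH versus WT, 0 members were called by limma (0.0296% of all genes), 2 had an unadjusted p below 0.05, Dsg1a and Dsg1b (3.72% of all genes), and both KH libraries lay below WT in 6 (16.6% of all genes), with a median of -0.59. The 6 were Dsg1a, Dsg1b, Dsc1, Dsc3, Dsp and Pkp1.

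Among the mutants, limma called 0 members in DKO versus KO (0.639% of all genes) and 0 in DKO versus KH (0.426% of all genes), with an unadjusted p below 0.05 for Dsc2 alone in each, where 6.80% and 5.71% of all genes had one. In KH versus KO it called 0 members and 0 genes in all (0.0%), with 0 members and 185 genes (1.09%) at an unadjusted p below 0.05. Against the mean of WT, KO and KH, 1 member was called in DKO (0.982% of all genes), and 3 had an unadjusted p below 0.05 (10.8% of all genes). The test for any difference among the 4 genotypes called 0 members (0.491% of all genes) by limma's moderated F, with Dsg1a and Dsc2 at an unadjusted p below 0.05 (6.75% of all genes).

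The make-up of the cadherins within each library does not depend on how whole libraries were scaled. It is not corrected for transcript length, and the members' median lengths run from 670 nt (Pkp3) to 7761 nt (Dsp). The part of transcript length in these shares was not tested. Dsc1 was 52.2% and 59.3% of the 3 desmocollins in the WT libraries. The KO libraries had 43.9%, 39.2% and 58.3%, the KH libraries 45.1% and 53.1%, and the DKO libraries 33.9% and 37.9%. The DKO shares were the lowest of the 9. Dsc3 took most of the remainder. It was the leading desmocollin in both DKO libraries, at 64.6% and 60.4%, and also in KO replicate 1 (55.5%), KO replicate 2 (60.3%) and KH replicate 1 (54.3%), whereas Dsc1 led in the other 4. Dsc2 was 1.52% and 1.67% of the desmocollins in DKO and 0.193% to 0.571% in the other 7 libraries, which did not overlap.

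The desmogleins were dominated by Dsg1 in every library. Dsg1a and Dsg1b made up 91.1% to 98.0% of the 4 desmogleins. The share was lowest in DKO replicate 2, KO replicate 1 (93.0%) and KH replicate 1 (94.6%). In those libraries Dsg3 reached 6.58%, 4.15% and 3.23%, against 1.13% to 1.93% in the other 6. They were also the libraries with the highest summed hair follicle markers, and a part of the hair follicle in these shares was not tested.

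The 7 cadherins together made up 30.9% and 37.2% of the summed FPKM of the 10 members in WT libraries. The KO libraries had 24.2%, 22.7% and 32.5%, the KH libraries 30.3% and 24.0%, and the DKO libraries 21.0% and 21.5%. Both DKO libraries had the lowest shares, with KO replicate 2 next. Long transcripts were relatively low in KO replicate 2 and DKO replicate 1, and high in WT replicate 2, which had the highest share. The part of transcript length in these shares was not tested either. The plaque genes summed to 1604 and 2054 FPKM in WT and 1344 and 1204 FPKM in DKO. The desmocollins went from 364 and 656 FPKM to 175 and 190 FPKM.

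**Figure D3:**
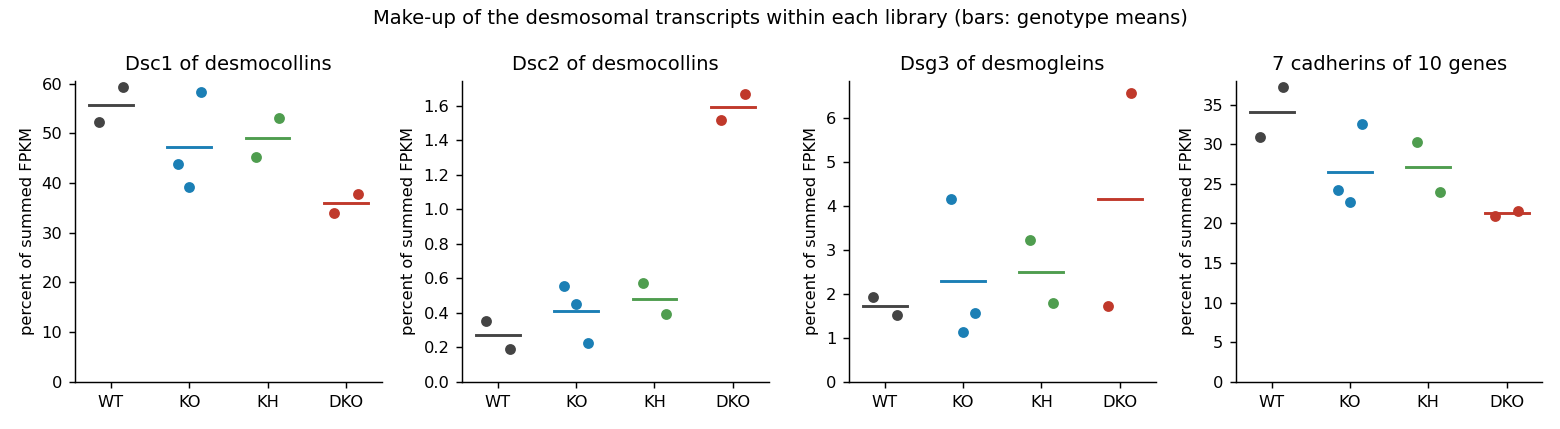
Shares of summed FPKM within each library, in percent (linear axes from 0); points are libraries and bars genotype means. Dsc1 falls short of 38% of the desmocollins in both DKO libraries, where Dsc2 exceeds 1.5%, and Dsg3 stands out in 1 library each of KO, KH and DKO.

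Since the bulk RNA mixes all layers of the epidermis, fewer cells of a layer and less RNA per cell cannot be told apart. The levels of Dsg1a, Dsg1b and Dsp followed that of Krt10 over the 9 libraries, with Pearson's r of 0.94, 0.94 and 0.92 on the log2 scale (Spearman's rho 0.87, 0.92 and 0.82), as a description of libraries that share genotype and scaling. Without the 2 libraries farthest from the median Krt10, WT replicate 2 and KO replicate 3, r was 0.90, 0.96 and 0.78. For Dsc1 and Dsc3, r with Krt10 was 0.83 and 0.84, and 0.52 and 0.56 without those libraries. Pkp1 had r of 0.89 with Krt10, and 0.67 without them. With Krt1, the other main suprabasal keratin, r was 0.80, 0.85 and 0.78 for Dsg1a, Dsg1b and Dsp, and 0.89 for Pkp1. The other 4 genes had lower values, with r against Krt10 of 0.27 for Pkp3, 0.03 for Dsg3, -0.37 for Dsc2 and -0.47 for Dsg2.

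Set against Krt10, Dsg1a was at 11.8 and 13.3 FPKM per 1000 FPKM of Krt10 in the WT libraries. The KO libraries had 11.5, 9.94 and 9.11, the KH libraries 13.0 and 9.73, and the DKO libraries 8.66 and 9.33. The DKO values were still below both WT values but overlapped with KO. For Dsp the same ratio was 19.8 and 23.8 in WT and 17.5 and 25.3 in DKO, which overlapped. For Dsc3 it was 6.96 and 8.29 in WT and 6.70 and 9.98 in DKO, so the lower level of Dsc3 in DKO was not seen in this ratio, whose mean was 7.63 in WT and 8.34 in DKO. For Dsg1b it was 2.04 and 3.80 in WT and 1.75 and 1.78 in DKO. For Dsc1 it was 7.66 and 12.1 in the WT libraries, 7.77, 3.79 and 8.32 in the KO libraries, 8.51 and 7.29 in the KH libraries, and 3.51 and 6.26 in the DKO libraries. DKO was below WT and KH, but KO replicate 2 lay within the DKO range. For Pkp1 it was higher in all 3 mutant means than in WT, at 26.5 and 28.6 in the WT libraries, 41.9, 26.6 and 24.4 in the KO libraries, 38.0 and 35.3 in the KH libraries, and 35.1 and 48.9 in the DKO libraries. Both KH libraries and KO replicate 1 lay within the DKO range. Krt10 itself was at 24844 and 32066 FPKM in WT and 16910 and 11518 FPKM in DKO, and the part of the suprabasal layers in the members' levels was not tested.

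Over all genes tested, both DKO libraries lay below both WT libraries in 26.4% and above them in 27.8%, which stand beside the marker counts below. The 6 spinous layer markers summed to 61995 and 74736 FPKM in WT and 60724 and 35159 FPKM in DKO. In 4 of the 6 (Krt1, Krt10, Notch3 and Serpinb2), both DKO libraries lay below WT. The spinous markers did not move alike, since the DKO mean was 50.0% of WT for Krt10, 68.9% for Krt1 and 110% for Krtdap. The 7 granular and cornified layer markers summed to 11339.5 and 9194 FPKM in WT and 11367 and 5871 FPKM in DKO. All 7 estimates were below 0 in DKO versus WT and limma called 0 of them, with 1 at an unadjusted p below 0.05. Both DKO libraries lay below WT in 3, Hrnr, Flg2 and Tgm3, at 34.5%, 38.2% and 69.0% of the WT mean. Of the 7 basal markers, 3 (Krt5, Krt14 and Itga6) were higher in both DKO libraries than in WT and 2 (Krt15 and Trp63) lower. The DKO mean was 44.9% of WT for Krt15 and 81.1% for Trp63. The sum of the basal markers, most of it Krt5 and Krt14, was 5278 and 5349 FPKM in WT and 6419 and 7406 FPKM in DKO. Melanocyte markers were higher in both DKO libraries for 4 of 4 genes, with a sum of 40.0 to 44.0 FPKM in WT and 89.8 to 196 FPKM in DKO. Hair follicle markers were higher in both DKO libraries for 5 of 7 genes, with a sum of 25.7 to 32.6 FPKM in WT and 34.1 to 68.2 FPKM in DKO, and immune markers for 2 of the 4 tested, with a sum of 2.92 to 7.37 FPKM in WT and 10.1 to 25.7 FPKM in DKO. Red blood cell markers summed to 531 and 78.7 FPKM in WT and 366 and 1289 FPKM in DKO, which overlapped. In 4 of 4, both DKO libraries lay above KH, a comparison for which the share over all genes was not counted. Dermal fibroblast markers summed to 74.6 and 85.4 FPKM in WT and 44.2 and 75.3 FPKM in DKO. The part of these cells in the members' levels was not tested.

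Dsc2 resembled a different keratin. By Pearson's r of log2(FPKM + 1) over the 9 libraries, its nearest genes among 6423 non-members averaging at least 10 FPKM were Krt6a (r = 0.96) and Krt6b (r = 0.95), keratins known from wounded and hyperproliferative skin, and then Slc25a5 (r = 0.94). Krt6a was at 156 and 629 FPKM in DKO and at 3.19 to 6.82 FPKM in the other 7 libraries. Krt6b was at 710 and 1593 FPKM in DKO and at 2.87 to 12.2 FPKM in the other 7. The libraries therefore formed separate clusters. Both keratins averaged at least 10 FPKM only through DKO, where Dsc2 was also high, so their place among the nearest genes follows from that group and is no separate result. Among the 7 libraries without DKO, r was still 0.95 for Krt6a but 0.36 for Krt6b. The lowest and the highest of these 7 for Krt6a were KH replicate 2 and KH replicate 1, of which the second was also the highest for Dsc2.

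The nearest genes of the abundant members were Rab10, Gng12 and Muc15 for Dsg1a (r = 0.99 each), Cd109, Rab3d and Iars2 for Dsg1b (0.98 each), Jak1, Synrg and Stam2 for Dsc1 (0.99 each), and Gm9746, Cd109 and Cmpk1 for Dsp (0.99, 0.99 and 0.98). Cd109 was therefore near both Dsg1b and Dsp. Dsc3 was nearest to Tor1aip2, Rab5b and Vcp-rs (0.99, 0.98 and 0.98) and Pkp1 to Etfdh, Ubxn4 and Vps37c (0.98, 0.98 and 0.97). Dsg2 was nearest to Net1, Ephb4 and Unc119b (0.99, 0.98 and 0.98), Dsg3 to Qrich1, Ptbp1 and Syne2 (0.97, 0.97 and 0.95), and Pkp3 to Med8, 1810058I24Rik and Fam3a (0.96, 0.96 and 0.95). With 9 libraries and 6423 candidates, high coefficients are found for many genes.

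**Figure D4:**
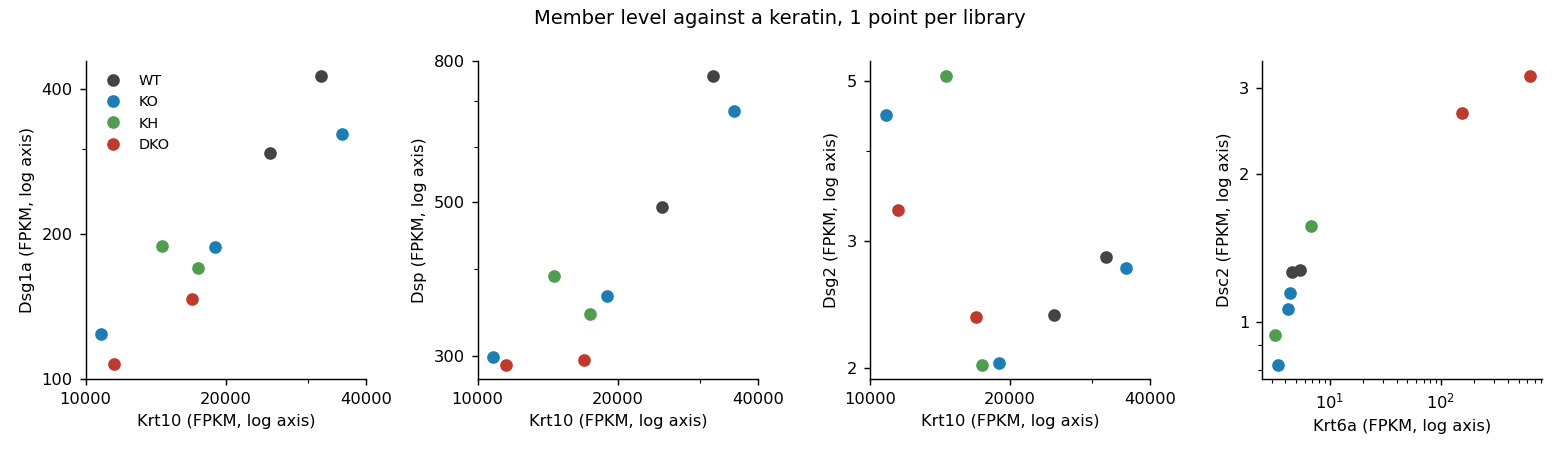
FPKM of Dsg1a, Dsp and Dsg2 against Krt10, and of Dsc2 against Krt6a (all axes logarithmic), with 1 point per library coloured by genotype. Dsg1a and Dsp increase with Krt10 (r = 0.94 and 0.92), Dsg2 does not, and the DKO libraries stand apart for Dsc2 and Krt6a.

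Along the chromosome the cadherin genes run in the order Dsc3, Dsc2, Dsc1, Dsg1c, Dsg1a, Dsg1b, Dsg4, Dsg3 and Dsg2. The strongest negative estimates in DKO versus WT belonged to the 4 neighbours Dsc1, Dsg1c, Dsg1a and Dsg1b in the middle of the cluster. Dsc2, with the only positive interval, lies between Dsc3 and Dsc1, whose estimates were negative. Dsg1c was at 2.94 and 4.27 FPKM in WT and 1.37 and 0.779 FPKM in DKO, a log2 fold change of -1.15 (SE 0.39, limma adjusted p = 0.254), and Dsg4, a desmoglein of the hair shaft, was at or near 0 in every library and was not tested.

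**Figure D5:**
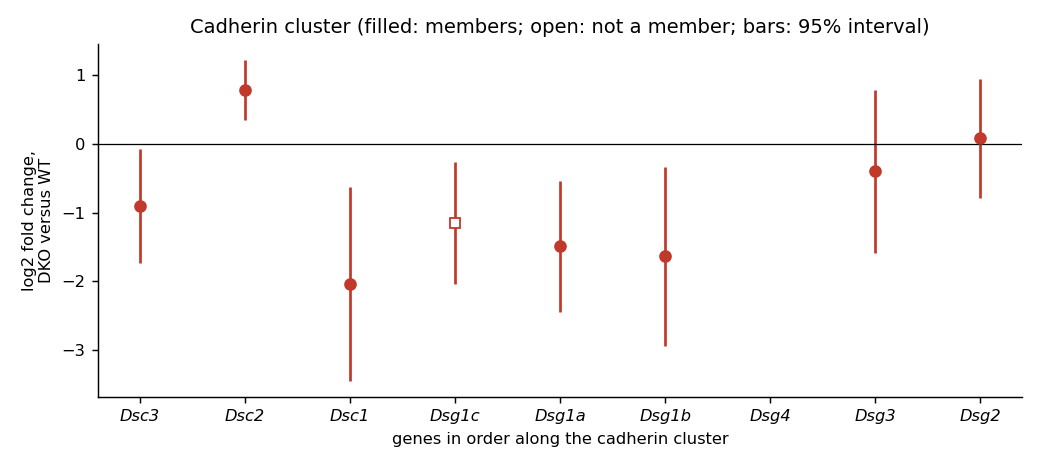
Log2 fold change of DKO versus WT (vertical axis, log2(FPKM + 1) scale) for the cadherin genes in chromosomal order, evenly spaced; filled points are members, the open square is Dsg1c, bars are 95% intervals, and Dsg4 was not tested. Estimates reach -2.04 at Dsc1 in the middle of the cluster and 0.79 at its neighbour Dsc2.

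Of the 10 other desmosome genes, 9 were tested and limma called 0 in every comparison, with 2 at an unadjusted p below 0.05 in DKO versus WT, Dsg1c and Ppl, where 13.8% of all genes had one. Their median log2 fold change in DKO was -0.63, and both DKO libraries lay below both WT libraries in 6 of the 9 (26.4% of all genes). Jup, the plakoglobin that joins cadherin tails to Dsp, was at 434.5 and 670.4 FPKM in WT, 278.8, 341.0 and 606.7 FPKM in KO, 299.7 and 318.5 FPKM in KH, and 330.2 and 333.8 FPKM in DKO. It had the same pattern as Dsp over the genotypes, except that DKO was not the lowest, and its log2 fold change in DKO was -0.70 (SE 0.38, limma adjusted p = 0.446). Pkp2, the plakophilin of heart and simple epithelia, was below 0.342 FPKM in every library.

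The adherens junction genes, which form the neighbouring cadherin contact, had a median log2 fold change of -0.19 in DKO versus WT, and limma called 0 of the 9 tested, with 1 at an unadjusted p below 0.05 (13.8% of all genes). The difference between this list and the desmosomal members was not tested.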

How the data were processed

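The authors isolated total epidermis by trypsin digestion, sequenced poly(A) RNA, mapped paired reads to mm10 and Ensembl release 72 with TopHat 1.4.1 and estimated FPKM per gene with Cuffdiff 2.2.0. The deposited FPKM were used as they stand, since this table gives neither read counts nor depth, and the read numbers that the study states were not used here. The columns of genotype means were not used. Libraries were assigned by the sample labels, and each library came from 1 embryo.

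Genes averaging above 0.1 FPKM in at least 1 genotype (16897) were fitted as log2(FPKM + 1) in limma 3.58.1 (R 4.3.3). The model held a mean for each of the 4 genotypes, left 5 residual degrees of freedom and used an intensity trend, and p-values were adjusted over all of them. Alternatives were a pseudocount of 0.1, no filter, an average of at least 1 FPKM, no trend, arrayWeights, quantile normalization, TPM, a block for the replicate number, median ratio scaling, only the genotypes compared, and each library left out. A length correction (loess, span 0.5), a block by the library number in the sample descriptions, and the removal of the 3 libraries with the most hair follicle markers were chosen after seeing the data. All 10 members are named. Other desmosome genes are given by counts, with Jup, Dsg1c, Pkp2 and any called gene named, markers by their sums, and for each member the 3 genes with the highest r. Members and lists were chosen with earlier results of these data known. Annotation came from GENCODE M21, and Python 3.11.15 with pandas 2.3.3 and scipy 1.17.1 prepared the tables.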

Additional observations from a re-analysis of the deposited data

How the results depend on the processing

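With 2 or 3 libraries a genotype, no read counts and sex unbalanced over genotypes, small differences could not be resolved. In DKO versus WT, 1 member was called with arrayWeights (Dsc2, log2 fold change 0.79, adjusted p = 0.0300) and in the fit of only the 2 genotypes (Dsc1, -2.04, adjusted p = 0.0401), settings that called 556 of 16897 and 400 of 16388 genes, against 123 of 16897; in DKO versus KO, 1 (Dsc2) was called with arrayWeights and with length correction. Against the mean of WT, KO and KH, 0 were called with a pseudocount of 0.1, no filter, an average of at least 1 FPKM, no trend, TPM, median ratio scaling or without the 3 libraries highest in hair follicle markers. With each library left out, calls ranged from 0 to 1 in these 3 comparisons, and were 0 in the other 5. The log2 fold change in DKO versus WT then ranged from -1.76 to -1.22 for Dsg1a, -2.26 to -1.01 for Dsg1b, -0.10 to 0.26 for Dsg2, -1.05 to 0.25 for Dsg3, -2.55 to -1.52 for Dsc1, 0.69 to 0.88 for Dsc2, -1.21 to -0.60 for Dsc3, -1.37 to -0.74 for Dsp, -0.67 to -0.19 for Pkp1 and -0.23 to 0.14 for Pkp3. Dsg2 reversed to -0.02 without WT replicate 1, and to -0.10 without DKO replicate 2 or the 3 libraries. Dsg3 reversed to 0.25 without DKO replicate 1 and to 0.050 with a block by library number, and Pkp3 to 0.09 without WT replicate 1 and 0.14 without DKO replicate 2 or the 3 libraries. Length correction moved the estimates in DKO versus WT from -1.49 to -1.28 for Dsg1a, from -1.06 to -0.82 for Dsp and from -0.40 to -0.21 for Dsg3. It moved Dsc2 from 0.79 to 0.96, Dsg2 from 0.08 to 0.23 and Pkp3 from -0.05 to -0.14, away from 0. The cause of these changes was not tested.

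With the replicate block, the call of Dsc2 against the mean was lost (0 members called, adjusted p = 0.173), and the count over all genes in DKO versus WT went from 123 to 67. KO replicate 3 was the only library of its number, so this block left it without weight. The Dsc2 estimate against the mean was 0.87, the same as without KO replicate 3. The labels name no shared litter or batch for the replicate numbers. By the paper's crosses, KH and DKO embryos could not share a litter with WT, with KO or with each other. Same-numbered libraries correlated between -0.60 and 0.49 in their deviations, over 0.1 in 4 of 12 pairs. In a genotype of 2 libraries the deviations mirror each other, so some of these pairs repeat the same value. The sample descriptions number the libraries differently from the titles. By those numbers r lay between -0.24 and 0.57, over 0.1 in 4 of 6 pairs, but not in the pairs with WT. A block by them left 1 residual degree of freedom, and limma then called 0 members in every comparison (Dsc2 against the mean, adjusted p = 0.505) and 0 genes in DKO versus WT (1637 at an unadjusted p below 0.05). WT replicate 2, KO replicate 3 and DKO replicate 2 were the only libraries with their numbers, so this block left them without weight. DKO versus WT then rested on DKO replicate 1 and WT replicate 1, adjusted by the KO and KH libraries. Its log2 fold change went from 0.08 to 0.93 for Dsg2, from -0.05 to -0.83 for Pkp3 and from -0.90 to -0.42 for Dsc3. Neither set of numbers is shown to pair the libraries.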
